A study of Homo sapiens with 4 samples.

Results

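The cells described are those that the authors' annotation placed in S phase, the part of the cell cycle in which DNA is copied, and the comparison is estradiol against vehicle within them. They were chosen by that deposited phase alone. There were 1750 of them among 8307 cells, 773 of 4940 in the vehicle library and 977 of 3367 in the estradiol library. The cells are MM134 (MDA MB 134VI), an established line of invasive lobular breast carcinoma with genotype WT, and both groups had first been deprived of hormone in charcoal-stripped serum. The vehicle group then received 0.01% ethanol and the estradiol group 100 nM estradiol, each for 24 h. The series concerns MDC1, a scaffold protein of the response to DNA breaks, and DNA repair in lobular carcinoma. Each treatment had 1 library of mRNA and 1 of DNA repair, 4 samples in all. Cells of 1 library are not replicates of a condition, so nothing was tested, and every value below describes these libraries.

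Estradiol binds the estrogen receptor ESR1, which then acts on chromatin to raise the transcription of some genes and lower that of others. In hormone-dependent breast cancer cells the raised genes include CCND1, whose product cyclin D1 starts the passage from G1 into S phase. Once a cell enters S phase, E2F transcription factors have been released from RB1, and the genes they drive, such as those of the MCM helicase, PCNA and CDC6, are at high levels. Replication also meets damaged bases, abasic sites and broken strands, which base excision repair, homologous recombination and the ATR checkpoint handle. Within S cells the called phase is the same for both treatments, while the share of cells in that phase differed between them.

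The files hold measurements of 3 kinds for each cell. A block of rows covers a commercial pan-cancer gene panel and is called the panel. A further block covers all genes and is called the all-gene rows. The repair block comes from Haircut, in which synthetic DNA hairpins, most with a lesion, meet the enzymes of each cell and the position of the strand end is read. Summed over S cells, the panel held 2131219 unique molecular identifiers (UMIs) with vehicle and 2888868 with estradiol. The all-gene rows held 1062404 and 1665885, and the repair rows 744153 and 1278800. The median S cell had 2402 panel UMIs with vehicle and 2518 with estradiol, and 1209 and 1479 all-gene UMIs. For the repair rows these medians were 962 and 1286, 1.34-fold more with estradiol and the widest difference of the 3 blocks. Levels are given in CPM, the UMI count scaled to an equal total of the same block, and differences as the log2 ratio of estradiol to vehicle with an exact 95% interval that covers counting error only.

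S cells were 15.6% of the vehicle library (exact binomial 95% interval 14.6 to 16.7) and 29.0% of the estradiol library (27.5 to 30.6). When phases were called again from standard S and G2/M gene lists after every cell was thinned to 800 all-gene UMIs, the shares were 26.4% and 38.8%. That step left out 951 vehicle cells and 139 estradiol cells as too shallow. At full depth the same calls gave 26.4% and 39.6%, and they returned 93.8% and 92.1% of the authors' S cells as S. In reverse, 55.6% of the cells so called S with vehicle and 67.4% with estradiol were S in the authors' annotation. After thinning these shares were 55.3% and 62.3%, so the new S groups also held many cells that the authors placed in other phases. The authors' clusters held different shares of the S cells in each library. Cluster 1 held 54.2% with vehicle and 55.8% with estradiol. Cluster 3 held 93 of 773 and 222 of 977, and cluster 2 held 8.15% and 1.13%. Mitochondrial RNA was alike in level, at a median of 7.56% and 7.51% of all-gene UMIs. Of the cell barcodes, 4 occurred in both libraries, and 2 of the cells that carried these barcodes were S cells.

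The S cells of both libraries carried luminal genes. Summed CPM of 10 luminal markers in the all-gene rows was 6480 with vehicle and 8254 with estradiol, and none of them was at 0. The 4 luminal markers on the panel summed to 21396 and 18517. CDH1, the cell adhesion gene whose loss defines lobular carcinoma, had 6 and 13 UMIs in the all-gene rows, and 222 and 353 UMIs, or 104 and 122 CPM, on the panel. The 7 basal or myoepithelial markers had 8 and 17 UMIs together, with KRT5, KRT14, KRT17, TP63 and ACTA2 at 0. The 7 immune and the 4 endothelial markers were at 0 in S cells of both libraries in these rows, where a count of 0 allows a level of up to 2.82 CPM with vehicle and 1.8 with estradiol (3 counts). The 9 mesenchymal markers summed to 218 and 193 CPM, with COL1A2, COL3A1, PDGFRB and ZEB2 at 0.

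Among 806 panel genes with at least 100 UMIs in S cells, estradiol went with a level at least 1.5-fold higher in 14 (1.74%) and at least 1.5-fold lower in 54 (6.7%). The median log2 ratio was -0.09. CCND1 alone was at 104803 CPM with vehicle and at 142326 CPM with estradiol. A median-of-ratios scaling, which sets that median to 0, gave 27 higher and 41 lower. Panel ratios between -0.09 and 0 turn positive under it. Within G2M cells it moved panel ratios by 0.11. In the all-gene rows, 4501 genes had at least 100 UMIs. Of these, 151 (3.35%) were higher and 133 (2.95%) lower by the same fold, around a median of 0.02. Of 391 genes measured in both blocks, 294 had the same direction, and so had all 14 of those past 1.5-fold in the panel.

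**Figure D1:**
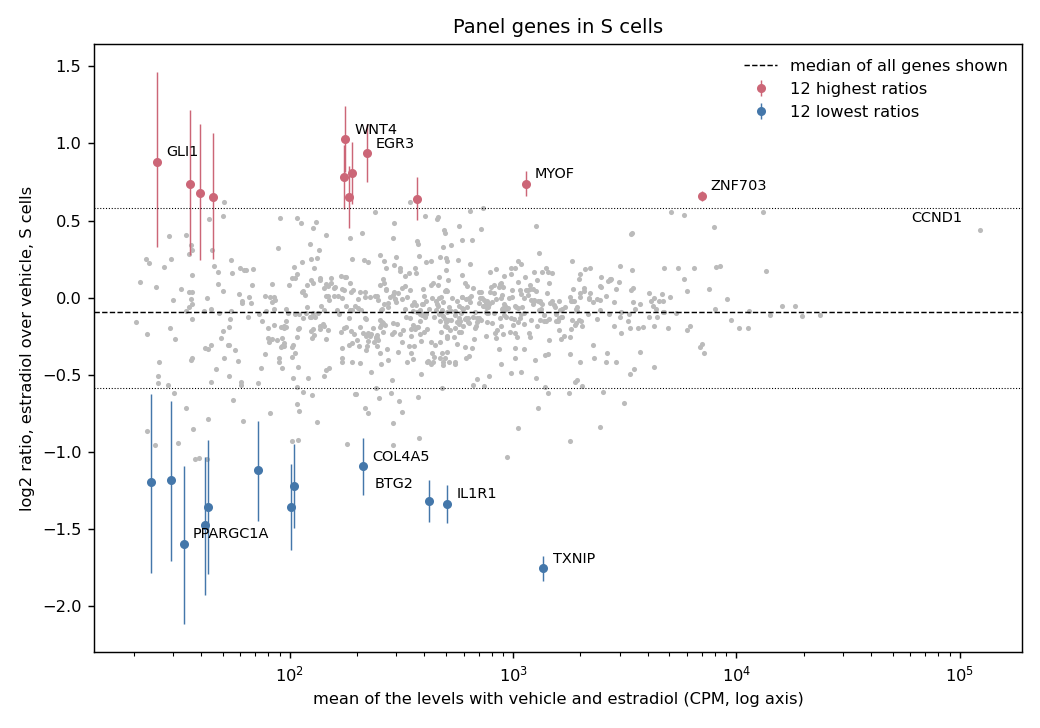
Panel genes with at least 100 UMIs in S cells: the x axis is the mean level in CPM (log axis), the y axis the log2 ratio of estradiol to vehicle, with exact 95% counting intervals on the 12 highest and 12 lowest ratios. The dashed line is the median of -0.09 and the dotted lines mark 1.5-fold. TXNIP lies lowest at -1.75, WNT4 highest at 1.03, and CCND1 stands alone at the right at 0.44.

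Estrogen-induced genes were higher with estradiol in S cells. CCND1 (chr11:69641156-69654474, a RefSeq gene position in GRCh38.p14, as are those below) was higher in the sum over S cells and in most single cells. Its median per S cell was 94460 CPM with vehicle and 138787 with estradiol, and 86.9% of estradiol S cells lay above the vehicle median. The 10th percentile was 41540 with vehicle and 89943 with estradiol, and the 90th 174173 and 199672, so the low end of the distributions differed more than the high end. The ratio was 0.44 (0.43 to 0.45) within S cells, against 0.35 within G1 and 0.70 within G2M cells.

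WNT4, a secreted signal that estrogen induces in luminal cells, was at 116 CPM with vehicle and 237 with estradiol (log2 ratio 1.03, 0.82 to 1.24). It was the only panel gene at or past 2-fold higher. EGR3, an early growth response transcription factor, was at 152 and 291 CPM (0.94). ZNF703, a transcriptional cofactor of luminal tumours, was at 5415 and 8565 CPM (0.66), and 84.4% of estradiol S cells were above the vehicle median. PGR, the progesterone receptor and a standard estrogen target, had only 24 and 59 UMIs, or 11.3 and 20.4 CPM (0.86, 0.15 to 1.61). JAK2, a cytokine receptor kinase, was at 273 and 420 CPM, and the receptor kinase RET at 516 and 762. Of the 12 estrogen-induced genes measured on the panel, 5 were at least 1.5-fold higher and none lower, where 1.77% and 8.14% of all 848 panel genes with at least 50 UMIs were. Every one of the 12 was above 1, and their median was 0.56 where that of all genes was -0.09, and IGF1R (0.03) and MAPT (0.13) were closest to 0.

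The all-gene rows added targets that the panel lacks. Of 29 measured estrogen-induced genes, 11 were at least 1.5-fold higher and none lower, where 4.72% and 5.32% of all 6865 genes with at least 50 UMIs were. All 29 had a ratio above 1, and their median was 0.48 against 0.01. TPD52L1 was at 56.5 and 134 CPM (2.38-fold, 1.78 to 3.22), and ELOVL2, a fatty acid elongase, at 64.0 and 140 (1.13). IGFBP4, which binds insulin-like growth factors, was at 96.9 and 209 (1.11), and SGK3, a kinase of growth signalling, at 39.5 and 82.2 (1.06). CTSD, a lysosomal protease, was at 115 and 222 (0.95). GREB1, a coactivator of the receptor, was at 30.1 and 49.8 CPM, a ratio of 0.73 within S cells where it was 1.52 within G1 and 1.51 within G2M cells. TFF3 was at 232 and 238 (0.04). The list's median was lower within S cells than elsewhere, at 0.73 within G1 and 0.89 within G2M cells. Whether S cells differ from the others in this could not be tested.

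The receptor itself had a slightly lower level. ESR1 (chr6:151656672-152129619) was at 3445 CPM with vehicle and 3104 with estradiol on the panel (-0.15, -0.20 to -0.11), and its all-gene ratio was -0.08 with an interval of -0.30 to 0.14. The median of all panel genes was -0.09, and under the median-of-ratios scaling the panel ratio of ESR1 was -0.06. Without that scaling its panel ratio was 0.12 within G1 and 0.03 within G2M cells. The median S cell differed little, at 2810.1 and 2739.7 CPM. From the 10th to the 90th percentile cells ran from 707 to 6809 with vehicle and from 881 to 5702 with estradiol, so the distributions overlapped over most of their range. FOXA1 and GATA3, transcription factors that work with the receptor, were at 2944 and 2296 CPM (-0.36), and at 10966 and 9568 CPM (-0.20).

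Several genes that hold growth back were lower with estradiol on the panel. TXNIP (chr1:145992435-145996579), an inhibitor of thioredoxin and of glucose uptake, was found at 2109 CPM (2047 to 2171) with vehicle and 625 (597 to 655) with estradiol. Its log2 ratio of -1.75 (-1.83 to -1.67), or 3.37-fold lower, was the lowest on the panel, and -1.56 was the lowest in the all-gene rows. The median S cell was at 1466 CPM with vehicle and 146 with estradiol, and 12.9% of estradiol S cells were above the vehicle median. PPARGC1A, a coactivator of mitochondrial genes, was at 50.2 and 16.6 CPM (-1.60). The transcription factor FOXO1 was at 61.9 and 24.2 (-1.35), and ZBTB20, a transcriptional repressor, at 146 and 57.1 (-1.35). DDIT4, an inhibitor of mTORC1, was at 57.2 and 27.7 (-1.05). CDKN1B, the cyclin-dependent kinase inhibitor p27, was at 2014 and 1564 (-0.36). Of 10 panel genes measured from the FOXO and growth restraint list, 5 passed 1.5-fold lower and none higher, where 8.14% and 1.77% of all panel genes did. Their median was -0.80, and IRS2 (0.19) had the only panel ratio above 1. The all-gene rows measured 5 members, of which TXNIP alone passed, and their median was -0.04. INSR (0.28) and FOXO3 (0.09) were above 1 there, with intervals that included no difference.

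Estrogen-repressed genes had 8 of 11 measured panel members at least 1.5-fold lower and none higher, against 8.14% and 1.77% of all panel genes, and every measured member was below 1. Their median was -0.85. IL1R1, the interleukin 1 receptor, was at 726 and 288 CPM (-1.33), and BTG2, an antiproliferative gene, at 597 and 240 (-1.32). The receptor kinase ERBB3 was at 2363 and 1244 (-0.93), and 14.1% of estradiol S cells exceeded the vehicle median. ID2, an inhibitor of differentiation factors, was at 3143 and 1761 (-0.84), and ERBB2 at 279 and 166 (-0.75). Of 10 members in the all-gene rows 7 passed 1.5-fold lower, where 5.32% of all genes did, and the median of the 10 was -0.65. CXXC5 went the other way, at 296 and 429 CPM (0.54).

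Signalling genes downstream of receptor kinases were mixed. DUSP6 and DUSP4, phosphatases that ERK signalling induces and that restrain it, were at 1344 and 750 CPM (-0.84) and at 1731 and 1130 CPM (-0.62). RASGRP1, an activator of RAS, was at 129 and 221 (0.78), and DUSP5 at 374 and 533 (0.51). Of 18 measured panel genes of this list, 1 passed 1.5-fold higher and 4 lower, where 1.77% and 8.14% of all panel genes did. The list's median of -0.10 lay close to that of all panel genes, -0.09. Of 11 members measured in the all-gene rows none passed 1.5-fold higher and 4 lower, where 4.72% and 5.32% of all genes did. There 5 lay above 1 and 6 below, and the median was -0.31 where that of all genes was 0.01. Of the immediate-early factors on the panel, FOS was at 1254 and 613 CPM (-1.03) and JUN at 2143 and 1396 (-0.62), while EGR3 was higher as given above.

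The highest and lowest panel genes also held members of no list. MYOF, a membrane repair protein, was at 851 and 1421 CPM on the panel (0.74) and at 52.7 and 118 in the all-gene rows (1.16). GLI1, a transcription factor of hedgehog signalling, was at 17.8 and 32.9 (0.88). DPYD, which degrades pyrimidines, was at 61.5 and 22.2 CPM (-1.47), with ratios of -0.70 within G1 and -0.73 within G2M cells. COL4A5, a basement membrane collagen, was at 290 and 136 (-1.09). Among all-gene rows TMEM164 was highest, at 18.8 and 56.4 (1.58, 0.88 to 2.36). SLC12A2, a chloride cotransporter, was at 254 and 102 (-1.32), and MIA3, which helps load collagen for secretion, at 148 and 50.4 (-1.55). NCOA3, a coactivator of nuclear receptors, was at 82.8 and 36.6 (-1.18). The 12 highest and 12 lowest genes of each block had the same direction within G1 and G2M cells. They were chosen on the sum over all S cells, so their direction within its clusters is largely given by that choice. Within cluster 1 alone, 6 of the 12 highest panel genes were past 1.5-fold.

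KRT8 was the keratin with the highest ratio among those measured on the list of luminal keratins and junctions. KRT8 (chr12:52897191-52949860), a keratin of simple epithelia, was at 665 CPM with vehicle and 1491 with estradiol (1.17, 1.04 to 1.29), against 0.81 within G1 and 0.80 within G2M cells. Its partner KRT18 was at 657 and 965 (0.55), KRT19 at 2176 and 2862 (0.40), and CLDN7, a tight junction protein, at 33.9 and 60.6 (0.84). CTNND1, the p120 catenin that binds cadherins, was lower in both blocks, at 2967 and 2228 CPM on the panel (-0.41) and 257 and 167 in the all-gene rows (-0.62). The list had 2 of 11 members past 1.5-fold higher and 1 past 1.5-fold lower in those rows, where 4.72% and 5.32% of all genes were. Its median there was -0.02 with 6 of 11 below 1, and on the panel -0.19 with 4 of 5 below 1.

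The genes of the replication machinery had nearly the same level with and without estradiol. PCNA (chr20:5114953-5126622), the sliding clamp of DNA polymerases, was at 1642 CPM with vehicle and 1478 with estradiol (-0.15, -0.22 to -0.09). HELLS (chr10:94545788-94613905), a chromatin remodeller, was at 4615 and 4226 (-0.13), and NASP, a histone chaperone, at 8231 and 7809 (-0.08). CDC6 (chr17:40287879-40304657), which loads the MCM helicase on origins, was at 1890 and 2054 (0.12, 0.06 to 0.18), and MCM7, a subunit of that helicase, at 2819 and 2934 (0.06). None of 12 measured S-phase genes of the phase-calling list, 5 of origin licensing and 10 of the replisome passed 1.5-fold on the panel. Of all 848 panel genes with at least 50 UMIs, 1.77% were higher and 8.14% lower by that fold. For lists this short, a count of none is close to those shares. The list medians, in the same order, were -0.02, -0.02 and -0.04. Under the median-of-ratios scaling these medians were 0.07, 0.07 and 0.05, so their sign depends on the scaling. It also turned when phases were called again on thinned cells, to 0.09, 0.11 and 0.06. MCM2, MCM4 and NASP changed sign under the median-of-ratios scaling as well, while PCNA (-0.06) and HELLS (-0.04) stayed below 0 under it. S-phase genes of this kind are commonly used to call phases, so their levels within S cells may be part of how the cells were chosen and are given as a description. The sources used here do not say how the authors called phases.

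Outside S phase most genes of these lists had ratios above 1. On the panel this held for 11 of 12 genes of the S-phase list within G1 and 12 of 12 within G2M cells, against 345 of 894 and 302 of 884 panel genes. POLD4 of the replisome, at -0.59 and -0.46, was an exception. CDC6 was at 378 and 737 CPM within G1 cells (0.97) and at 530.2 and 743 within G2M cells (0.49). E2F1, the transcription factor that starts this programme, was at 315 and 569 within G1 cells (0.85), and at 1244 and 1281 within S cells (0.04). PCNA was at 371 and 500.3 within G1 cells and at 621 and 716 within G2M cells. The median of the S-phase list was 0.47 within G1 and 0.23 within G2M cells, and 12 of 12 panel genes had a lower ratio within S than within both other phases. This held for 34 of 38 all-gene rows measured in each phase. In each library the S cells carried the most of these genes. Their summed share of panel UMIs had a median of 3.08% per S cell with vehicle and 2.97% with estradiol, against 0.67% and 1.05% per G1 cell.

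**Figure D2:**
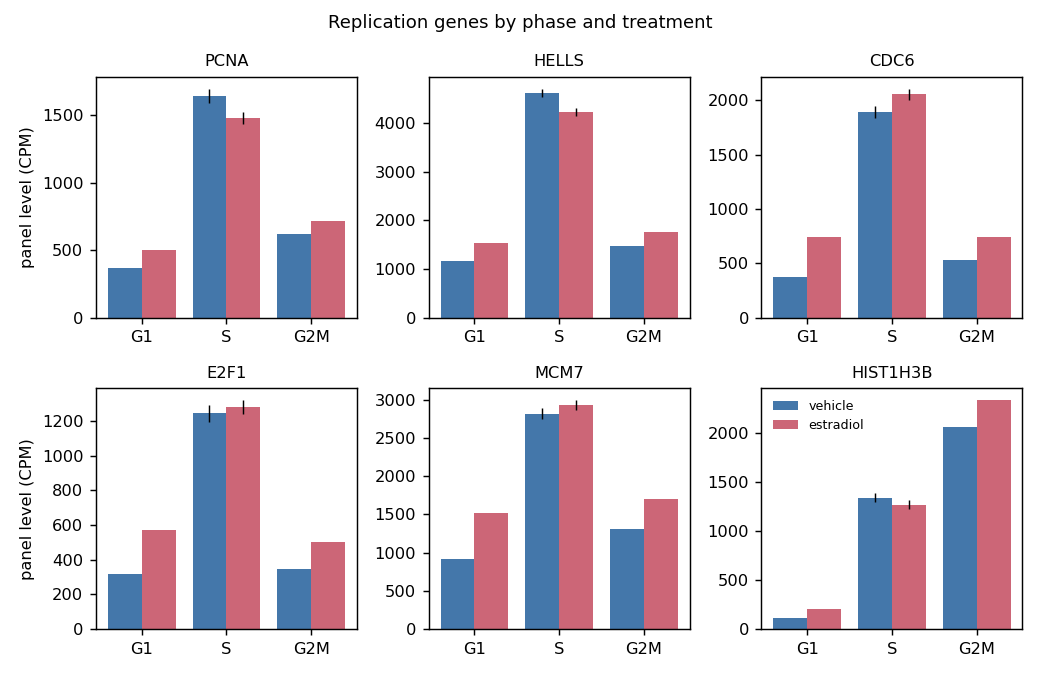
Panel levels in CPM of 6 replication genes by phase (x axis) and treatment (blue vehicle, red estradiol); bars are UMIs summed over the cells of 1 library, and lines on the S bars are exact Poisson 95% intervals. In S cells PCNA is at 1642 and 1478, and in G1 cells at 371 and 500.3.

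The promoters of 2 of these genes are printed for the E2F motif, which each of them holds. They are RefSeq sequences of GRCh38.p14 from 250 bases before to 50 bases after the gene's start, on the gene's strand, with the motif in capitals. The letters searched on both strands were TTTCCCGC, TTTCGCGC, TTTGCCGC and TTTGGCGC. The windows are chr17:40287629-40287928 (plus strand) for CDC6 and chr20:5126573-5126872 (minus strand) for PCNA.
CDC6: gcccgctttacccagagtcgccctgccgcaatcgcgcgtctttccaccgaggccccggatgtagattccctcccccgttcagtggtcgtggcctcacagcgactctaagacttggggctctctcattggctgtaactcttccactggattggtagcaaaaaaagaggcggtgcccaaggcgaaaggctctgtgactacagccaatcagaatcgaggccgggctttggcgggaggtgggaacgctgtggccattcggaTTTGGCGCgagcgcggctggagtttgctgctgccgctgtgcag
PCNA: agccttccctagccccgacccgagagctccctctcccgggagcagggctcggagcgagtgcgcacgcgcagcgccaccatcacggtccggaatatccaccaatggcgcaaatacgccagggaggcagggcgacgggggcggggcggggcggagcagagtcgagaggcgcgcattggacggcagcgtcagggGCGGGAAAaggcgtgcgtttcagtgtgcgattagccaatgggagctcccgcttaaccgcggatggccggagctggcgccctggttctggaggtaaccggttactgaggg
A match was present in 20 of 47 promoter windows of the S-phase list (42.6%) and 9 of 19 of the origin licensing list (47.4%), against 1164 of all 35116 windows (3.31%). The match describes the sequence and says nothing of binding in these cells. An estrogen response element (GGTCANNNTGACC, both strands) was in 20 of all windows and in none of 42 windows of the estrogen-induced list, of which 27 of 40 genes were in the table.

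Single members departed from the rest of the replication group. POLD4, the smallest subunit of DNA polymerase delta, was at 2290 CPM with vehicle and 1581 with estradiol (-0.53, -0.59 to -0.48), and 27.2% of estradiol S cells lay above the vehicle median. Its ratios within G1 and G2M cells were -0.59 and -0.46. RPA3, of the single-strand binding complex, was at 1921 and 1742 (-0.14). Among all-gene rows POLA2, of the polymerase alpha complex, had 14 and 47 UMIs (1.10, 0.21 to 2.07), and POLE4, of polymerase epsilon, was at 36.7 and 58.8 CPM (0.68). The origin subunit ORC6 was at 84.7 and 56.4 (-0.59, -1.02 to -0.15), while its ratios within G1 and G2M cells were 0.32 and 0.16. GMNN, which keeps origins from firing again, was at 298 and 242 CPM (-0.30) and CDT1, the factor it inhibits, at 46.1 and 61.2 (0.41, -0.10 to 0.93). Of 16 origin licensing genes in the all-gene rows, 1 was past 1.5-fold lower and none higher, where 5.32% and 4.72% of all genes were. Of 14 genes of nucleotide supply none passed, beside the same shares of all genes. Their median was 0.01, or -0.01 under the median-of-ratios scaling. Ribonucleotide reductase RRM2 was at 232 CPM in both libraries, and thymidylate synthase TYMS at 124 and 129.

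Among regulators of the cycle, the inhibitors did not go 1 way. CDKN2D was at 88.7 and 127 CPM (0.51). CDKN1A, the inhibitor p21, was at 1657 and 1111 CPM (-0.58), with 34.8% of estradiol S cells above the vehicle median, and CDK6 at 457 and 293 (-0.65). The kinase CDK4 was at 1122 CPM in both libraries, and RB1 at 587 and 588. WEE1, the kinase that holds CDK1 and CDK2 back, was at 2617 and 1993 (-0.39, -0.45 to -0.34). CDC25A, the phosphatase that opposes it, was at 518 and 613 (0.24) on the panel and at 36.7 and 58.8 (0.68) in the all-gene rows. WEE1 was lower to a like degree within G1 (-0.38) and G2M cells (-0.42), and CDC25A was higher within both, at 0.83 and 0.37. CHEK1, the effector kinase of ATR, was at 788 and 764 (-0.04), and ATR at 635 and 609 (-0.06), and both signs turn under the median-of-ratios scaling. MKI67, a proliferation marker, was at 569 and 622 CPM in the all-gene rows (0.13, -0.02 to 0.28).

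**Figure D3:**
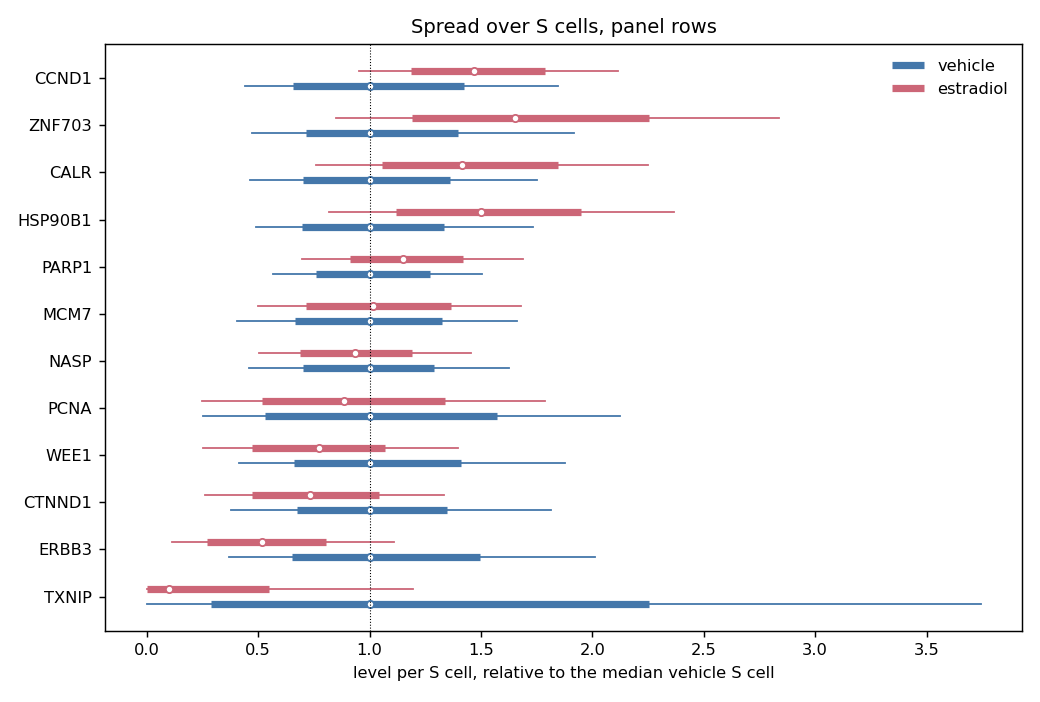
Spread over single S cells for 12 panel genes: each cell's level divided by the median vehicle S cell (x axis), as median (circle), middle 50% (thick line) and 10th to 90th percentile (thin line), with blue for vehicle and red for estradiol. CCND1, ZNF703, CALR and HSP90B1 lie to the right with estradiol, WEE1, CTNND1, ERBB3 and TXNIP to the left, and MCM7 and NASP nearly coincide.

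MDC1 (chr6:30699807-30717281), named in the series title, was at 793 CPM with vehicle and 741 with estradiol (-0.10, -0.19 to -0.00). The median of all panel genes was close to this, at -0.09. In the all-gene rows it had 64 and 113 UMIs, with a ratio of 0.17 (-0.28 to 0.64). Its panel ratio was 0.14 within G1 and -0.15 within G2M cells. None of 11 break signalling genes on the panel passed 1.5-fold, where 1.77% of all panel genes were higher and 8.14% lower. The list's median was -0.02, or 0.07 under the median-of-ratios scaling. MRE11, the nuclease that starts resection, was lower at 568 and 445 (-0.35), while its partners RAD50 (2179 and 2226, 0.03) and NBN (954 and 953) were level. The damage kinase ATM was at 556 and 503 (-0.14), and CHEK2, its effector, at 197 and 234 (0.25).

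Homologous recombination and Fanconi genes had no member of 23 past 1.5-fold on the panel. In the all-gene rows 1 of 25 was past 1.5-fold higher and 2 lower, where 4.72% and 5.32% of all genes were. On the panel 18 of 23 lay below 1, as did 572 of all 848 genes with at least 50 UMIs, and the median of -0.09 equals that of all panel genes. BRCA1 was at 1202 and 1249 CPM (0.06), and BRCA2 at 1080.1 and 1029 (-0.07, positive under the median-of-ratios scaling). FANCL, the ubiquitin ligase of the Fanconi core, was lowest at 470 and 352 (-0.42) and at 47.1 and 26.4 in the all-gene rows (-0.83). Within G1 cells the same list had a median of 0.24, with BRCA2 at 0.60. Of the end joining genes, PRKDC, the catalytic subunit of DNA-PK, was at 4441 and 5078 (0.19, 0.16 to 0.23) and MAD2L2, of the shieldin complex, at 592 and 689 (0.22). POLQ, which joins ends by microhomology, was at 744 and 834 (0.16) within S cells where its ratio was 0.89 within G1. The list's all-gene median was 0.18 over 9 genes, and 8 of 9 lay above 1, as did 3478 of all 6865 genes.

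PARP1 (chr1:226360691-226408093), which marks strand breaks with ADP-ribose and is the target of PARP inhibitors, was at 5091 CPM with vehicle and 5817 with estradiol (0.19, 0.16 to 0.23). It was above the vehicle median in 66.5% of estradiol S cells. PARP2 was at 695 and 712 (0.04, -0.06 to 0.13) on the panel and at 46.1 and 67.8 (0.56, 0.06 to 1.07) in the all-gene rows. PARG, which removes the mark, was at 30.1 and 41.4 (0.46, -0.17 to 1.11). None of 6 ADP-ribosylation genes measured in the all-gene rows passed 1.5-fold, where 4.72% of all genes were higher and 5.32% lower. The list's all-gene median was 0.28. In base excision repair, the glycosylase NTHL1 was at 373 and 438 on the panel (0.23), MUTYH at 158 and 131 (-0.27), and polymerase POLB at 186 and 162 (-0.20). APEX1, the main abasic endonuclease, was at 175 and 188 in the all-gene rows (0.11), and the uracil glycosylase UNG at 79.1 and 85.2 (0.11). Of 15 such genes in the all-gene rows 1 was past 1.5-fold higher and 1 lower, where 4.72% and 5.32% of all genes were. None of the 15, APEX1 and UNG among them, had an interval that excluded no difference. TOP1, the topoisomerase that also cuts at ribonucleotides, was at 6564 and 5783 CPM (-0.18, -0.22 to -0.15).

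Several chaperones of the endoplasmic reticulum were higher with estradiol. HSP90B1, its HSP90, was at 4106 and 6039 CPM on the panel (0.56, 0.52 to 0.59), and 81.1% of estradiol S cells exceeded the vehicle median. CALR, a calcium-binding lectin chaperone, was at 6672 and 9165 (0.46), with 78.3% above that median. In the all-gene rows HSPA5, the HSP70 of this compartment, was at 149 and 264 (0.83, 0.56 to 1.10) and PDIA3, a disulfide isomerase, at 156 and 256 (0.71). HYOU1 had 14 and 59 UMIs (1.43, 0.57 to 2.38). Of the 19 that could be measured, 5 passed 1.5-fold higher and none lower, where 4.72% and 5.32% of all genes were, and their median was 0.25. Not every member was above 1. HERPUD1 was at 34.8 and 24.6 (-0.50), DNAJB9 had 34 and 45 UMIs (-0.24), and the panel's DDIT3 was at 120 and 109 (-0.13). The intervals of these lower members included no difference. The list's medians within G1 and G2M cells were 0.53 and 0.37.

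The promoters of 3 of these chaperones are printed for the endoplasmic reticulum stress element that they share, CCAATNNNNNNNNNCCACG, searched on both strands and given in capitals. The windows and their source are as above, at chr9:125241294-125241593 (minus strand) for HSPA5, chr12:103930160-103930459 (plus strand) for HSP90B1 and chr19:12938359-12938658 (plus strand) for CALR.
HSPA5: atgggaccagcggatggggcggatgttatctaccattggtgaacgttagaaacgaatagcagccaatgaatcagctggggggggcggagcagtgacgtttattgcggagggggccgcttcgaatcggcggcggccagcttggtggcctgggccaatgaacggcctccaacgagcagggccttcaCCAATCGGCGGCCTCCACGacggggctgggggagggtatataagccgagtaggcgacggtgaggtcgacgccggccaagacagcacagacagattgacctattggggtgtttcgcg
HSP90B1: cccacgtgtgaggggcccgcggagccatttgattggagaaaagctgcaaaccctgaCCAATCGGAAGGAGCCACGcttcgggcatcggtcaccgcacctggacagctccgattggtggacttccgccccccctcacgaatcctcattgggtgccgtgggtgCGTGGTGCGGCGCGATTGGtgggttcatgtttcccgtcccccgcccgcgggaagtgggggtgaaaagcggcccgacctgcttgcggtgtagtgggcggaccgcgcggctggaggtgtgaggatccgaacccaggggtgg
CALR: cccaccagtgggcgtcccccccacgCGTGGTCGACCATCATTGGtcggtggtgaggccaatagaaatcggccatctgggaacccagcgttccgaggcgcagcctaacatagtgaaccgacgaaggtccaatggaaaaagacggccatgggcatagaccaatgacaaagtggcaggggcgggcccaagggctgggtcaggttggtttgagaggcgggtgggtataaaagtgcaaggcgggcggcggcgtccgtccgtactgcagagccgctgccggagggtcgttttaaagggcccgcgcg
The element was in 9 of 27 promoter windows of the list (33.3%), in 7 of its 19 genes with a window, and in 27 of all 35116 windows (0.0769%). HSP90B1 had 2 matches. CANX, CRELD2, PDIA6 and XBP1 also had one, and their all-gene ratios were 0.31, 0.11, 0.45 and 0.20, so the 7 genes with the element ran from 0.11 to 0.83.

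Among cytosolic chaperones and ribosome assembly factors most ratios lay above 1, and few passed 1.5-fold. FKBP4, a cochaperone of steroid receptors that is on the estrogen-induced list too, was at 415 and 716 CPM (0.79, 0.63 to 0.95). STIP1, which links HSP70 to HSP90, was at 96.0 and 148 (0.62), and the mitochondrial chaperonin HSPD1 at 793 and 1136 (0.52). Of 18 cytosolic members in the all-gene rows 2 passed 1.5-fold higher, where 4.72% of all genes did. Of these 18, 15 lay above 1, as did 3478 of all 6865 genes, and the median was 0.29. DNAJB1, the cytosolic chaperone measured on the panel, was at -0.08, a sign that turned under the median-of-ratios scaling. Of 17 ribosome biogenesis genes 4 passed 1.5-fold higher and none lower, where 4.72% and 5.32% of all genes did. Of these 17, 15 lay above 1, beside the same 3478 of 6865, with a median of 0.33. UTP20 was at 37.7 and 76.8 (1.03), BOP1 at 21.6 and 40.2 (0.89), and NCL, the most counted of them, at 1397 and 1906 (0.45). Glycolysis had 14 of 15 genes above 1, beside 3478 of all 6865. None of the 15 passed 1.5-fold in either direction, which for so short a list is close to the shares of all genes. GAPDH was at 1933 and 2522 (0.38) and PKM at 189 and 274 (0.54). Mitochondrially encoded genes had a median of 0.05, with MT-CO1 lowest at 10946 and 8640.5 CPM (-0.34).

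Genes of the BCL2 family, which set the threshold of apoptosis, lay on both sides. The proapoptotic PMAIP1 was at 138 and 242 CPM (0.81, 0.61 to 1.01), with ratios of 1.36 within G1 and 1.42 within G2M cells, and BAX was at 331 and 478 (0.53). BCL2L11, also proapoptotic, was at 591 and 443 (-0.42), and the protective MCL1 at 1137 and 811 (-0.49). BCL2 itself was at 457 and 546 (0.26). Of 10 measured panel members 1 passed 1.5-fold higher and none lower, where 1.77% and 8.14% of all panel genes did.

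**Figure D4:**
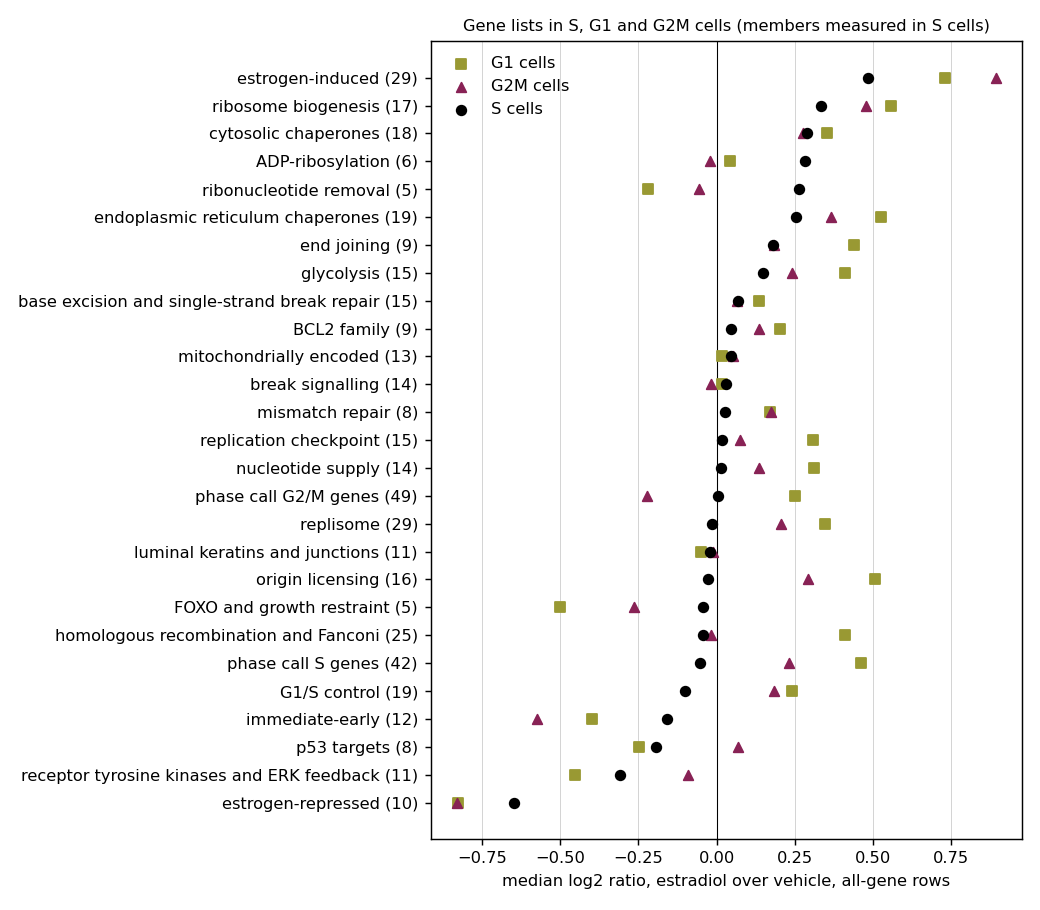
Median log2 ratio of estradiol to vehicle for each gene list in the all-gene rows (x axis) within S cells (black circles), G1 cells (squares) and G2M cells (triangles); the number of members with at least 50 UMIs in S cells follows each name. Origin licensing lies at -0.03 in S cells, 0.51 in G1 cells and 0.29 in G2M cells, while the estrogen-induced list is above 0 in all 3.

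Some genes had a ratio within S cells that lay apart from both other phases. The comparison covered 759 panel and 2398 all-gene genes with at least 200 UMIs in each phase, and the differences between phases were not tested. LIFR, a cytokine receptor, was at 39.9 and 61.3 CPM within S cells (0.62, 0.24 to 1.01) and had ratios of -0.07 within G1 and -0.22 within G2M cells. LIMCH1, an actin regulator, was level within S cells at 86.6 and 82.2 CPM (-0.07) and at -1.07 and -1.03 elsewhere. MMP16, a membrane-bound metalloproteinase, had a ratio of 0.65 within S cells, and -0.02 and -0.22 elsewhere. ALDH3B2 had 1.14, and 0.48 and 0.26 elsewhere. In the other direction, the transcription factor MYBL1 was at 95.1 and 106 CPM within S cells (0.16), against 1.10 within G1 and 1.00 within G2M cells. PEG3, an imprinted zinc finger gene, was higher in all phases but least within S cells (1.07, 2.45 and 1.87 for S, G1 and G2M). MAPT, which binds microtubules, had 0.13, 0.76 and 1.05, and CNTFR, a cytokine receptor subunit, -0.55, 0.29 and 0.17.

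Repair of the synthetic hairpins was compared position by position. Of 284 positions with at least 500 UMIs in S cells, 10 (3.52%) took a share of repair UMIs that was higher by 25% or more with estradiol, 3 (1.06%) took one that was lower by 20% or more, and the median was 0.01. None reached 2-fold. The 9 hairpins are named Abasic, Uracil1, Uracil2, Uracil3, GU, riboG, CI, TI and Normal. The labels do not spell these names out further, and neither the sequences nor the position of each lesion were used here. Signal was summed over a window from position 44 to 50. Within this window the abasic, uracil, GU and riboG hairpins were highest at position 45 or 46. Over all positions, Abasic had most UMIs at 46 and Uracil1 at 45 in S cells of both libraries. The others had most outside the window, Uracil2 and Normal at 20, Uracil3 at 14, GU and TI at 6, and riboG and CI at 9. The hairpin named Normal had 0.123% of its UMIs in this window with vehicle and 0.0917% with estradiol.

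The abasic hairpin had the largest signal in the window and a smaller one with estradiol. With vehicle the window held 65.8% (65.3 to 66.2) of the hairpin's UMIs, and with estradiol 58.7% (58.4 to 59.1), a log2 ratio of -0.16 (-0.18 to -0.14). Position 46 alone held 49.4% and 43.4%. The same direction was present within G1 cells, at 67.0% and 60.9%, and within G2M cells, at 58.8% and 54.7%. Within the S cells of clusters 0, 1 and 3 the ratio was -0.12, -0.11 and -0.05, and in cluster 3 the interval was -0.11 to 0.00. All 13 measured positions before 20 lay above 1, with position 1, at 10.3% and 12.4% of the hairpin's UMIs, the most abundant and position 19 the most different (0.46, 0.30 to 0.61). Positions 3, 4, 7 and 19 were 4 of the 10 higher ones. The hairpin's share of all repair UMIs was 6.31% and 6.10%. With that share nearly level and the window lower, the positions outside the window had to be higher as a group. The higher positions before 20, with 3, 4, 7 and 19 among them, are thus largely the other side of the window result. They are not a separate observation, though how the rise was spread over positions is not set by the window. APEX1, which cuts abasic sites in cells, had a ratio of 0.11, as given above.

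**Figure D5:**
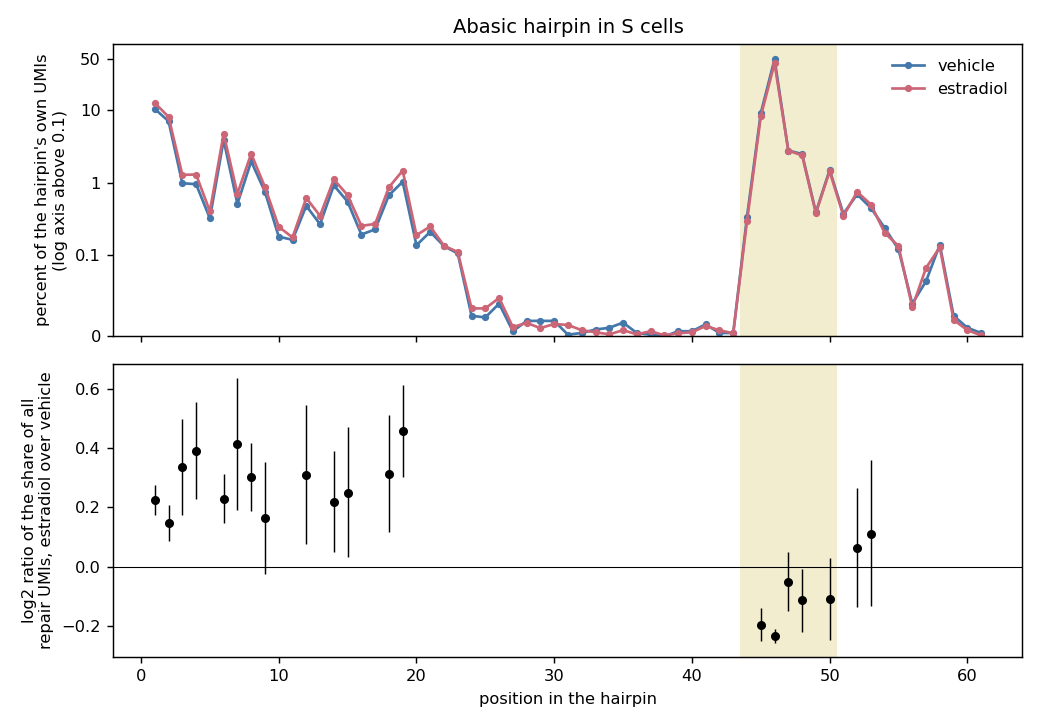
The abasic hairpin in S cells by position (x axis): above, the percent of its own UMIs with vehicle (blue) and estradiol (red), on a log axis above 0.1; below, the log2 ratio of the share of all repair UMIs at positions with at least 500 UMIs, with exact 95% counting intervals. The shaded window is positions 44 to 50, in which position 46 holds 49.4% and 43.4%.

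Summed over all S cells, the uracil, GU and riboG hairpins differed by less than the abasic hairpin in percentage points and in log2 ratio. Uracil1 had 33.9% of its UMIs in the window with vehicle and 33.0% with estradiol (-0.04, -0.07 to -0.02), and position 45, its largest, 22.5% and 21.0%. Uracil2 was at 19.4% and 18.3% (-0.08), and Uracil3 at 15.1% and 15.2% (0.01, -0.10 to 0.12). The GU hairpin was higher with estradiol, at 9.69% and 10.6% (0.13, 0.10 to 0.16), and within G1 cells at 6.27% and 7.22%. Within S cells of cluster 1 alone, however, its ratio was -0.01. The riboG hairpin was at 5.54% and 5.67% (0.03, -0.03 to 0.09), while within G2M cells it was at 7.52% and 6.47%. The CI and TI hairpins had at most 0.238% in the window. On these small shares the log2 ratio was -0.43 (-0.77 to -0.08) for Normal and -0.37 (-0.73 to -0.01) for CI, both farther from 0 than that of the abasic hairpin. The order of the larger hairpins by log2 ratio also varied with cluster and phase. In S cells of cluster 0, GU was at 0.17 and Abasic at -0.12, and in those of cluster 3, riboG was at -0.23 and Abasic at -0.05. Within G1 cells GU was at 0.20, riboG at 0.15 and Abasic at -0.14. Within G2M cells riboG was at -0.22 and Abasic at -0.11. In the vehicle library S cells had a larger window signal of the uracil hairpins than the other phases, with Uracil1 at 33.9% against 26.7% in G1 and 25.6% in G2M cells. The same order held with estradiol, at 33.0%, 26.6% and 25.6%. The ratios that lay lowest were riboG position 37 (-0.40), GU position 35 (-0.36) and Uracil3 position 6 (-0.34). The highest beside the abasic positions was Uracil1 position 51 (0.41).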

How the data were processed

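Single MM134 cells were profiled with 10x droplets, 1 library per treatment for mRNA and 1 for DNA repair. Per the submitters' processing notes, the build hg38 and the tools UMI-tools 0.5.3, Bowtie2 2.3.2, SAMtools, cutadapt 1.8.3 and Cell Ranger 3.0.2 were used. The authors deposited natural log values, ln(1 + 10000 x count / total) for each cell and block, as the values show, and UMI counts were recovered from them (100% whole within 1e-06). The deposited percent of mitochondrial RNA, clusters and phases were used as given. The design had assumed counts. Counts were summed over the S cells of each treatment, and ratios carry exact conditional 95% intervals. With 1 library per treatment there was no test and no replicate, and no doublet caller was run. Calls were 1.5-fold with at least 100 UMIs (50 for lists), or 25% higher or 20% lower with at least 500 UMIs for repair positions. Genes named were MDC1, ESR1, PGR, PARP1, PARP2, CCND1 and MKI67, the 12 highest and 12 lowest of each block with at least 20 CPM, up to 4 per list by size, the 6 most above and below both other phases, and for repair each main position, the window and the 3 highest and 3 lowest positions. Other list members named were chosen after their values were seen. The members and lists were chosen with earlier results of these data known. Scripts, tested on simulated data, used Python 3.11.15, numpy 2.4.6, pandas 2.3.3, SciPy 1.17.1, Scanpy 1.11.5 and matplotlib 3.10.9.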

Additional observations from a re-analysis of the deposited data

Results flagged for a closer look

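In 8 genes the ratio of estradiol to vehicle was below 1 within S cells and above 1 within both G1 and G2M cells, with counting intervals that excluded 1 in each phase. These genes were 6 of 759 panel and 2 of 2398 all-gene genes with at least 200 UMIs in each phase. NASP, HELLS, PCNA and GMNN are on the S-phase list of the phase-calling genes. Their levels within S cells may thus be part of how the cells were chosen. The difference between phases was not tested, and no gene had the opposite arrangement. On the panel, NASP, a histone chaperone, had log2 ratios of -0.076 in S, 0.33 in G1 and 0.08 in G2M cells, and the histone gene HIST1H3B -0.077, 0.88 and 0.18. HELLS had -0.13, 0.41 and 0.26, and PCNA -0.15, 0.43 and 0.21. SMC3, of cohesin, had -0.071, 0.05 and 0.07, and SUZ12, of the Polycomb complex, -0.059, 0.13 and 0.15. Under the median-of-ratios scaling the S values of NASP, HIST1H3B, SMC3 and SUZ12 turned to 0.01, 0.01, 0.02 and 0.03. In the all-gene rows GMNN had -0.30, 0.51 and 0.50, and FAM111B, a protease, -0.18, 0.62 and 0.42. HIST1H3B belongs to a family of near-identical genes, so its counts are uncertain.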

How the results depend on the processing

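No paired analysis was possible because each treatment had 1 library and no test was made. Under the alternatives 60 single-gene ratios were followed, those of the genes always named and of the 12 highest and 12 lowest of each block. None of these past 1.5-fold changed sign, which their choice as extreme ratios largely gives. Other genes past 1.5-fold were not followed. No list median past 1.5-fold changed sign. Medians near 0 did, among them those of the replication lists, and PARP2 on the panel turned from 0.04 to -0.06 within cluster 1. Panel genes past 1.5-fold higher were 27 with median-of-ratios scaling and 25 with totals that leave out the top 10 genes. In the all-gene rows 324 were higher and 365 lower at a minimum of 50 UMIs, 61 and 46 at 200, and 86 and 53 within cluster 1, and 203 were lower when phases were called again on thinned cells. The S share was then 26.4% with vehicle and 38.8% with estradiol, and 16.8% with vehicle among cells with at least 800 UMIs. Repair positions higher by 25% or more were 4 within cluster 1, and at a minimum of 100 UMIs 22 were higher and 12 lower. The abasic window ratio was -0.13 as a mean over cells, -0.11 within cluster 1 and -0.21 as a share of all repair UMIs, and the GU window turned to -0.0076 within cluster 1. The causes were not tested. All-gene depth limits what can be seen of low genes, and no value carries a replicate error.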

Other observations

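Genes of the G2/M phase list were level within S cells, with a median log2 ratio of 0.05 on the panel over 7 genes, against 0.23 within G1 and -0.23 within G2M cells. Mismatch repair genes, which correct copying errors, had none of 7 past 1.5-fold on the panel, where 1.77% of all genes were higher and 8.14% lower. The list's median was -0.05, a sign that turns under the median-of-ratios scaling. Targets of p53 had 1 of 8 higher and 1 lower on the panel, beside the same shares of all panel genes. The p53 list's median was -0.08 within S cells (0.01 under that scaling), -0.41 within G1 and -0.30 within G2M cells. Genes that remove ribonucleotides from DNA had none of 5 past 1.5-fold in the all-gene rows, where 4.72% of all genes were higher and 5.32% lower. That list's medians were 0.26 within S, -0.22 within G1 and -0.06 within G2M cells.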
